A study of Mus musculus with 16 samples.

Results

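Palbociclib alone was compared with its vehicle in RNA of mouse haematopoietic stem cells (HSCs), the marrow cells from which all blood cells descend. The comparison takes in 8 of the 16 libraries of the series, 4 from palbociclib-treated and 4 from vehicle-treated C57BL/6J mice, picked by the treatment given in the sample labels. Palbociclib was dosed at 30.4 mg/kg of body weight. Every mouse, vehicle included, received 100 µL of 20% DMSO and 40% PEG 400 in PBS by intraperitoneal injection every 48 h over 85 days. The remaining 8 libraries, 4 of palbociclib with rapamycin at 6.4 mg/kg (the combination) and 4 of rapamycin alone, served here as a second look at palbociclib in cells that were not part of the main comparison. A library held the RNA of 10000 cells, depleted of lineage-positive cells, stained for CD150, CD48, Sca-1 and CD117 and sorted from G0 and G1, so cells in S phase and mitosis lay outside the gate. By its title, the series concerns cell size and the potential of stem cells in aging. The sources used here give neither the age nor the sex of the mice, and do not say whether a library came from 1 animal or a pool, so a p-value here weighs a difference only against the variation among libraries, part of which may be technical.

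Palbociclib inhibits CDK4 and CDK6, the kinases that the D cyclins activate in early G1. These kinases phosphorylate RB and its relatives p107 and p130, the pocket proteins, which otherwise hold E2F and DP transcription factors inactive at the promoters of cell cycle genes. Most adult HSCs are quiescent, a state in which FOXO transcription factors, CDK inhibitors and transforming growth factor beta (TGF-beta) signals are known to take part.

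Library totals ran from 10133860 to 15328830 counts, with 16704 to 19602 genes detected, and the 12 pairs of libraries within the 2 groups correlated at 0.843 to 0.949 in log2 CPM (counts scaled to the library total). Vehicle 3 and vehicle 4 correlated least with the other libraries. Vehicle 3 had both the most counts (15328830) and the fewest genes detected (16704). Transcripts of the sorted surface proteins were present in every library: Kit (CD117) ranged over 50.2 to 130.2 TPM in palbociclib and 33.5 to 118 TPM in vehicle libraries, Ly6a (Sca-1) over 243 to 678 and 142 to 1268 TPM, and Slamf1 (CD150) over 6.03 to 18.8 and 11.6 to 28.9 TPM. Cd48, which the labels name without saying whether it was selected for or against, was also present at 9.34 to 56.4 TPM in palbociclib and 8.24 to 40.1 TPM in vehicle libraries. RNA of other blood cells varied widely within both groups. Neutrophil granule genes took 1.34% to 10.0% of the counts in palbociclib and 1.34% to 6.84% in vehicle libraries, and immunoglobulin and B cell genes took 0.0579% to 1.79% and 0.352% to 8.05%, the highest being vehicle 4. In such bulk RNA, fewer cells of a type and less RNA per cell cannot be told apart.

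With edgeR's quasi-likelihood test and Benjamini-Hochberg adjustment, 0 of 15308 genes passed the 0.05 threshold (percent called 0; smallest adjusted value 0.207). In the same libraries DESeq2 called 114 genes and limma-voom and limma on log2 TPM called 0. An unadjusted p under 0.05 was reached by 1456 genes, 9.51% of those tested, of which 668 (4.36%) had higher and 788 (5.15%) lower values in palbociclib. The 4 palbociclib libraries lay entirely above the 4 vehicle libraries in 433 genes (2.83%) and entirely below in 339 (2.21%). Positive log2 fold changes were found for 47.8% and negative ones for 52.2% of the genes. No gene named below passed edgeR's test of palbociclib against vehicle (DESeq2 called 40 of the 97 named), so each is given with its values and its unadjusted or adjusted p. The combination and rapamycin libraries gave the same direction for 70.2% of the 668 higher genes and 72.7% of the 788 lower genes, against 58.6% of all tested genes. Whether same-numbered palbociclib and combination libraries, or vehicle and rapamycin libraries, deviated together was not tested. The 2 comparisons may therefore not be independent, although they share no library. Vehicle 3 and rapamycin 3, for example, had the fewest genes detected in their groups, at 16704 and 16570.

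The genes on either side differed in base composition. The longest annotated transcripts of the 668 higher genes had a median GC content of 46.5% and those of the 788 lower genes 53.7%, against 49.3% over all tested genes. Across genes, the deviation of a library from the average was related to GC content with a Spearman rho of 0.12, -0.039, -0.20 and -0.26 in the palbociclib libraries, against 0.12, 0.17, 0.0032 and 0.21 in the vehicle libraries. In the combination libraries it was 0.068, 0.18, -0.16 and -0.26, and in the rapamycin libraries -0.026, -0.31, 0.11 and 0.021. After the GC trend of each library was removed, 0 genes passed and 1249 had an unadjusted p under 0.05. Of the 90 genes named below with an unadjusted p under 0.05, 16 did not have it in that fit: Bcl3, Cdk2, Cebpb, Ftl1, Gars, H2-K1, Hmgcs1, Hspa9, Itgb1, Jag2, Map1lc3a, Pink1, Prps2, Psmb7, Rb1 and Tm7sf2.

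The kinases and cyclins that palbociclib acts on were abundant in both groups. In TPM, a share of transcripts that allows for gene length, Cdk4 averaged 878 ± 142 TPM in palbociclib and 726 ± 87.8 TPM in vehicle libraries (SD, 4 libraries each), while Cdk6 averaged 50.3 ± 18.3 and 38.9 ± 14.0 TPM. Among the D cyclins, the levels of Ccnd2 and Ccnd3 were 393 ± 199 and 458 ± 108 TPM in palbociclib libraries, against 363 ± 136 and 365 ± 22.98 TPM in vehicle libraries, and Ccnd1 stood at 21.7 ± 8.13 and 16.8 ± 7.95 TPM. In TMM-scaled CPM, the scale of the tests, Cdk4 had 586, 671, 653 and 590.2 CPM in palbociclib libraries, against 535, 539, 527 and 576 CPM in vehicle libraries. All 4 palbociclib libraries were above all 4 vehicle libraries, by a small margin, and the log2 fold change was 0.20 ± 0.13 (SE, edgeR adjusted p = 0.662). Cdk6 overlapped between the groups, with 172, 145, 171 and 331 CPM in palbociclib libraries, against 107, 172, 68.9 and 169.9 CPM in vehicle libraries; 1 library, palbociclib 4, stood far above the rest, and the log2 fold change of 0.66 was 0.33 without it. Ccnd2 showed no shift, with a log2 fold change of 0.00 ± 0.23, and Ccnd3 had 0.32 ± 0.24 (0.53 without palbociclib 2, the lowest library).

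Below the kinases, the pocket protein gene Rbl1, its E2F partner Tfdp1 and the kinase gene Cdk2 were higher in every palbociclib library than in any vehicle library. The promoters of these 3 genes are shown because each holds a match to a motif of the E2F type in the 250 bases before its start site. The motifs searched on both strands were TTTCCCGC, TTTGGCGC and TTTCGCGC, and were chosen after the values were seen. Sequences are from RefSeq on GRCm38.p6, written 5′ to 3′ on the strand of the gene, with the match in capitals.
Rbl1 (chr2:157204535-157204784, minus strand): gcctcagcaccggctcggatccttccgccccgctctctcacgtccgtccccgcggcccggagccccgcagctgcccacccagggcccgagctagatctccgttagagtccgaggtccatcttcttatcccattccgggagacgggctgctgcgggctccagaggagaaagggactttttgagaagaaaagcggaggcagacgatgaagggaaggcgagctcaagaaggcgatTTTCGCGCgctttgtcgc
Tfdp1 (chr8:13338501-13338750, plus strand): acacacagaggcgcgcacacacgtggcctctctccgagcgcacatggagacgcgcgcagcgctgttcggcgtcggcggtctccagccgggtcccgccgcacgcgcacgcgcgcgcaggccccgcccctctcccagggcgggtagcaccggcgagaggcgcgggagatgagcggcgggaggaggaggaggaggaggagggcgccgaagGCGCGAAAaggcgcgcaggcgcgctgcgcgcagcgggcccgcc
Cdk2 (chr10:128705052-128705301, minus strand): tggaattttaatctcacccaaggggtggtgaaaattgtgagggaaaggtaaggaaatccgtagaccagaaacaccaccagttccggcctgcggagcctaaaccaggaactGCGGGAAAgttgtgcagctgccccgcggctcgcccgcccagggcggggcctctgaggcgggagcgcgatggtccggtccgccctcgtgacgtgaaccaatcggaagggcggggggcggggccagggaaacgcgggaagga
The match begins 18 bases before the start in Rbl1, where it is TTTCGCGC, 43 bases before in Tfdp1 and 140 bases before in Cdk2, where the reverse complements GCGCGAAA and GCGGGAAA are found. Of 19 members of the CDK4/6 list with a promoter in the table, 5 (26.3%) held such a match, against 356 of 10686 tested genes (3.33%). The share was 23.8% (15 of 63) for S-phase genes, 9.46% (7 of 74) for G2/M genes and 3.57% (1 of 28) for the FOXO and quiescence list. Of the 12 higher genes of smallest p named below, 1 of 7 with a promoter held a match, and of the 12 lower genes 0 of 10. The promoters examined for Cdk6, Ccnd3 and Cdkn1a held no match. Those of Cdk4, Cdkn2c and Lin9, which also did not overlap between the groups, are not shown. Other members of the list with a match are not named. Whether a match goes with a difference between the groups was not tested. A match in these letters is a description of the sequence and no evidence of binding.

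Rbl1, which encodes p107, had 48.7, 50.02, 66.97 and 58.8 CPM in palbociclib libraries, against 27.4, 18.97, 33.8 and 28.3 CPM in vehicle libraries. The lowest palbociclib library was well above the highest vehicle library, and the group means of 56.1 ± 8.51 CPM in palbociclib and 27.1 ± 6.12 CPM in vehicle libraries gave a log2 fold change of 1.05 ± 0.29 (SE, edgeR adjusted p = 0.304). Tfdp1 encodes DP1, the partner that E2F proteins need to bind DNA. It had 413, 304, 473 and 337 CPM in palbociclib libraries, against 211, 266, 261 and 240.5 CPM in vehicle libraries, without overlap (log2 fold change 0.64 ± 0.18, adjusted p = 0.304). Cdk2, the kinase that follows CDK4 and CDK6 at the G1/S border, had 199.7, 175, 176 and 149 CPM in palbociclib libraries, against 126, 128, 137 and 145 CPM in vehicle libraries. The gap between its groups was narrow, and the log2 fold change was 0.38 ± 0.14 (adjusted p = 0.414).

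The inhibitors of the kinases did not share a direction. Cdkn2c, the gene of the CDK4/6 inhibitor p18, had 36.7, 24.4, 23.4 and 25.8 CPM in palbociclib libraries, against 16.96, 14.7, 22.4 and 14.8 CPM in vehicle libraries, with all palbociclib libraries above all vehicle libraries and a log2 fold change of 0.68 ± 0.30 (adjusted p = 0.493). Cdkn1a, which encodes the CDK inhibitor p21, had 116, 108, 124 and 154 CPM in palbociclib libraries, against 189.6, 251, 127 and 192 CPM in vehicle libraries. It was lower in palbociclib apart from an overlap with vehicle 3, at -0.60 ± 0.21 (adjusted p = 0.403). Rb1 itself averaged 22.04 ± 8.61 CPM in palbociclib and 12.3 ± 5.48 CPM in vehicle libraries, and its groups overlapped (log2 fold change 0.84 ± 0.39). Lin9, a subunit of the MuvB complex that binds pocket proteins, did not overlap and had a log2 fold change of 0.82 ± 0.47. The other 15 tested members lay between -2.63 and 0.45 with unadjusted p of at least 0.0810. Of the 27 tested members in all, 0 passed, 6 were higher and 1 lower without overlap (backgrounds 2.83% and 2.21%), and the median log2 fold change was 0.10 (-0.03 without vehicle 2), against -0.03 over all genes.

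**Figure D1:**
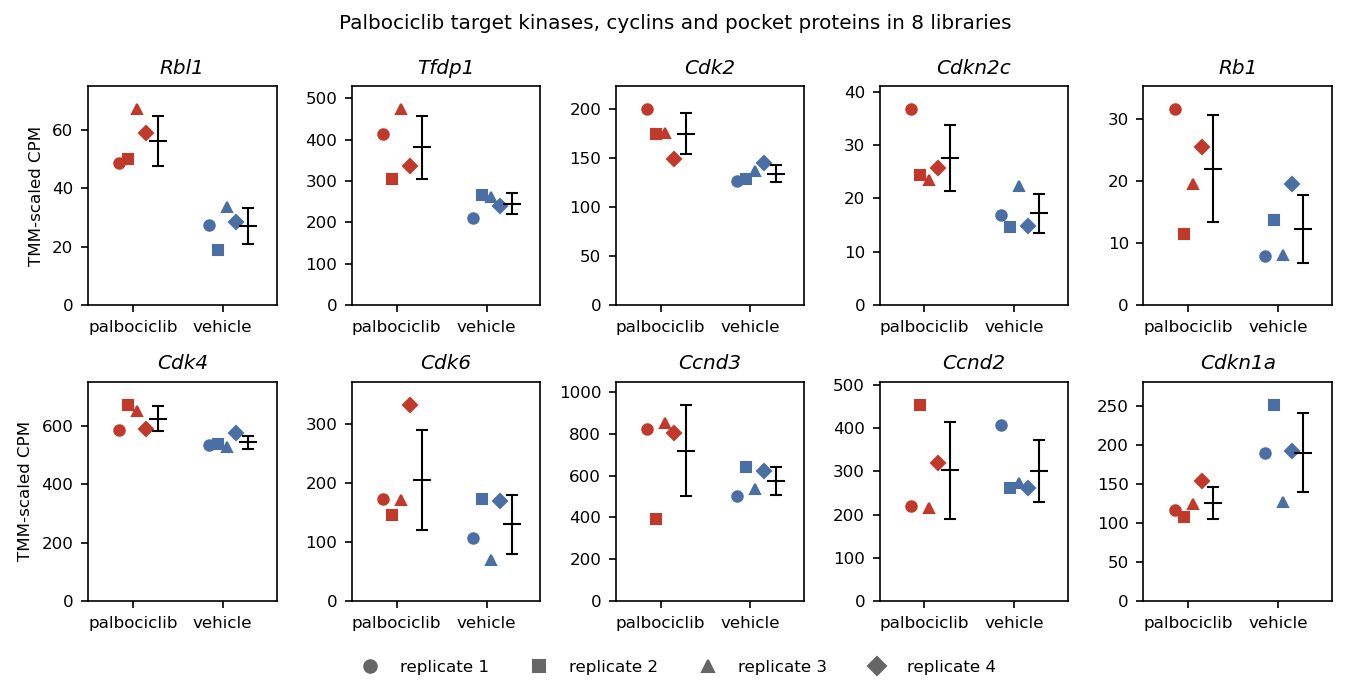
TMM-scaled CPM of 10 genes of the CDK4/6 axis in the 4 palbociclib (red, left) and 4 vehicle (blue, right) libraries; symbols give the replicate, and the bar gives mean ± SD. Rbl1, Tfdp1, Cdk2, Cdkn2c and Cdk4 do not overlap between the groups, while Ccnd2 does throughout.

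In the combination against rapamycin, with no library in common, this pattern was seen only in part. Cdk2 (log2 fold change 0.39 ± 0.14) and Cdk4 (0.33 ± 0.13) were again higher without overlap, while Rbl1 had 37.2, 28.2, 53.97 and 44.9 CPM in combination libraries, against 35.6, 50.9, 17.9 and 44.2 CPM in rapamycin libraries, a log2 fold change of 0.14 ± 0.29. The groups overlapped in Rbl1 there, and the difference between its 2 palbociclib effects was -0.91 ± 0.41 (edgeR adjusted p = 0.872). Cdkn1a went the other way, with 192, 224, 229.6 and 198 CPM in combination libraries, against 128, 80.1, 148 and 127 CPM in rapamycin libraries. All combination libraries were above all rapamycin libraries, at 0.80 ± 0.21, and the difference between the effects was 1.398 ± 0.29 with an unadjusted p of 0.000211 (adjusted p = 0.404).

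Outside the cell cycle, immediate early and marker lists, the 12 lower genes of smallest p had no overlap of the groups, which their selection required. Their log2 fold changes ran from -0.77 to -2.89 and their adjusted p from 0.207 to 0.212. In combination against rapamycin 11 of the 12 were also lower, 9 with an unadjusted p under 0.05 and 8 without overlap, against backgrounds of 4.35% and 3.87% of all tested genes in that direction. Qk passed there as 1 of 5 called genes (percent called 0.0327), but in only 1 of the 8 fits with a combination or rapamycin library left out, the fit without combination 1 (adjusted p 0.039 to 0.111 over the 8).

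Qk (ENSMUSG00000062078; GRCm38 chromosome 17, 10202601 to 10319854) encodes quaking, an RNA-binding protein of the STAR family that controls splicing and RNA stability. It had 34.8, 19.5, 20.4 and 32.9 CPM in palbociclib libraries, against 54.5, 53.3, 66.5 and 85.8 CPM in vehicle libraries. Every palbociclib library was below every vehicle library, with means of 26.9 ± 8.05 CPM in palbociclib and 65.02 ± 15.1 CPM in vehicle libraries and a log2 fold change of -1.27 ± 0.24 (SE, edgeR adjusted p = 0.207). The other libraries showed the same order, with 34.97, 26.7, 27.8 and 18.8 CPM in combination libraries, against 81.1, 87.98, 108 and 83.6 CPM in rapamycin libraries (-1.74 ± 0.25, adjusted p = 0.0197). Khdrbs3, another RNA-binding gene of the same family, had 2.05, 9.62, 0.742 and 3.004 CPM in palbociclib libraries, against 31.6, 26.5, 43.4 and 13.4 CPM in vehicle libraries, again without overlap, at -2.89 ± 0.65 (adjusted p = 0.212). Its effect with rapamycin present was as large, at -2.83 ± 0.64.

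Brd1, a scaffold of histone acetyltransferase complexes, had 21.9, 18, 8.05 and 16.7 CPM in palbociclib libraries, against 66.6, 45.8, 32.2 and 55.5 CPM in vehicle libraries. No library of one group reached the other, and the combination and rapamycin libraries were apart as well (-1.63 ± 0.31 and -1.36 ± 0.30). Mta1, a subunit of the NuRD deacetylase complex, had 6.32, 7.15, 3.603 and 7.17 CPM in palbociclib libraries, against 44, 7.97, 26.7 and 31.1 CPM in vehicle libraries; vehicle 2 lay just above the palbociclib range and the other vehicle libraries far above it (-2.17 ± 0.48, adjusted p = 0.212). Zfpm1, among the largest lower values outside the 12 and the cofactor FOG1 of GATA factors in megakaryocyte and erythroid cells, had 16.4, 14.7, 5.09 and 6.78 CPM in palbociclib libraries, against 84.1, 25.4, 22.4 and 43.5 CPM in vehicle libraries, without overlap (-2.02 ± 0.47), and -2.64 ± 0.48 in the second comparison. Erythroid markers had a median log2 fold change of 0.10 here and -1.78 there, and their part in these values was not tested. Nfix, a nuclear factor I gene known to take part in HSC survival, had 18.6, 16.8, 7.95 and 9.88 CPM in palbociclib libraries, against 43.4, 59.3, 69.03 and 33.9 CPM in vehicle libraries. The highest palbociclib library was below the lowest vehicle library by a wide margin, with -1.95 ± 0.38 here and -1.67 ± 0.37 with rapamycin.

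Pmepa1, a TGF-beta target that dampens SMAD signalling, had the smallest p of the 12. It had 2.94, 2.82, 1.17 and 2.71 CPM in palbociclib libraries, against 9.902, 19.8, 10.6 and 19.3 CPM in vehicle libraries, means of 2.41 ± 0.835 CPM in palbociclib and 14.9 ± 5.39 CPM in vehicle libraries, and a log2 fold change of -2.62 ± 0.47 (edgeR adjusted p = 0.207). All 4 palbociclib libraries were under 3 CPM, so its size rests on low counts, and with rapamycin present it was -0.62 ± 0.44. Znrf2, a membrane-linked ubiquitin ligase gene, had 18.6, 7.85, 14.1 and 14.7 CPM in palbociclib libraries, against 27.6, 40.2, 42.9 and 50.6 CPM in vehicle libraries, without overlap (-1.54 ± 0.28), and -1.51 ± 0.28 with rapamycin. Egln1, the oxygen-sensing prolyl hydroxylase PHD2 that marks HIF1-alpha for degradation, had 10.7, 4.15, 6.57 and 5.52 CPM in palbociclib libraries, against 21.5, 13.5, 27.6 and 27.4 CPM in vehicle libraries, also without overlap (-1.74 ± 0.38; -1.21 ± 0.37 with rapamycin). The receptor scaffolds Grasp and Git1 and the mucin-type glycosyltransferase Galnt11 had log2 fold changes of -1.23, -1.398 and -0.86. Galnt11 was the 1 gene of the 12 with the opposite sign in the other libraries, at 0.10.

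**Figure D2:**
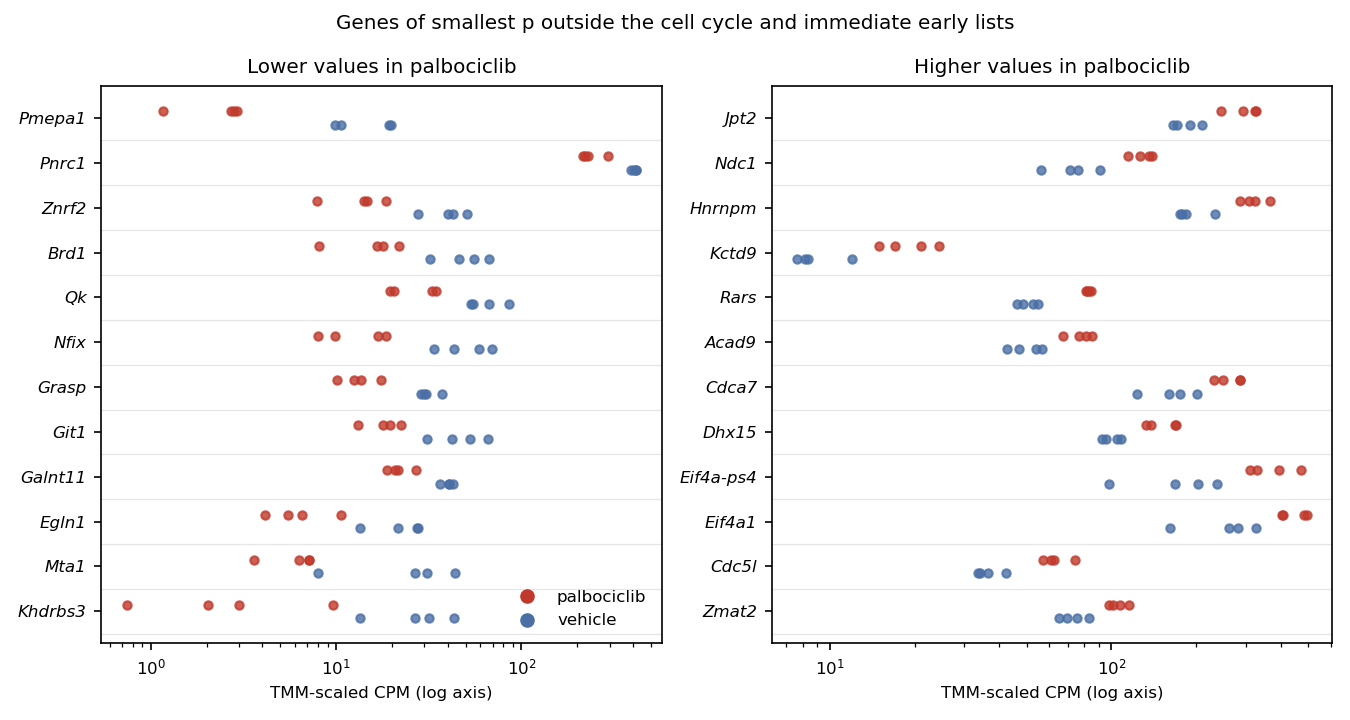
TMM-scaled CPM, on a log axis, of the 12 genes of smallest p with lower values (left panel) and the 12 with higher values (right panel) in palbociclib (red, upper points) than in vehicle (blue, lower points), 1 point per library. The selection required that the groups do not overlap.

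The 12 higher genes of smallest p had smaller differences, with log2 fold changes of 0.52 to 1.10 and adjusted p of 0.210 to 0.227. Hnrnpm, a splicing regulator, had 308, 287, 364 and 324 CPM in palbociclib libraries, against 176, 179, 233 and 184 CPM in vehicle libraries; vehicle 3 was the highest of its group and still below all palbociclib libraries (0.73 ± 0.16, adjusted p = 0.212). Dhx15 and Cdc5l, which act in the release and activation of the spliceosome, were 0.60 and 0.80, and the spliceosome component Zmat2 was 0.52. Eif4a1, the RNA helicase that unwinds mRNA leaders for translation, had 403, 484, 493 and 407 CPM in palbociclib libraries, against 282, 327, 162 and 261 CPM in vehicle libraries. The lowest palbociclib library was well above the highest vehicle library (0.79 ± 0.19; 0.60 ± 0.19 with rapamycin). A processed copy, Eif4a-ps4, gave 1.09 ± 0.26, but its reads may be those of Eif4a1 and its value is uncertain. Rars, the arginyl-tRNA synthetase, had 81.9, 84.3, 82.97 and 81.5 CPM in palbociclib libraries, against 54.8, 48.7, 52.7 and 46.1 CPM in vehicle libraries, a spread within groups far below the difference between them (0.71 ± 0.16).

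Jpt2, which encodes a binding protein of the calcium messenger NAADP, had 244, 322, 327 and 293 CPM in palbociclib libraries, against 189.6, 165, 172 and 210.3 CPM in vehicle libraries (0.69 ± 0.14), and 318, 327, 300.1 and 348 CPM in combination libraries, against 222, 176, 185 and 234 CPM in rapamycin libraries (0.66 ± 0.14). In both comparisons its groups were apart. Ndc1, a membrane anchor of the nuclear pore, averaged 129 ± 11.02 CPM in palbociclib and 73.5 ± 14.3 CPM in vehicle libraries (0.81 ± 0.17). Acad9, an assembly factor of respiratory complex I, was at 0.63 ± 0.14, and Cdca7, a partner of the chromatin remodeller HELLS, at 0.67 ± 0.15. Kctd9 had the largest difference among them, 1.100 ± 0.24, and the opposite sign with rapamycin (-0.17). Of the 12 higher genes, 9 had the same direction in combination against rapamycin and 5 had no overlap there, against a background of 4.98%. In the test of the difference between the 2 palbociclib effects, edgeR called 0 of 15308 genes (percent called 0).

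The largest differences among the higher genes were at low to moderate levels. Glce, an enzyme of heparan sulphate synthesis, had 16.6, 11.3, 13.03 and 15.1 CPM in palbociclib libraries, against 1.38, 1.91, 6.48 and 2.09 CPM in vehicle libraries. All palbociclib libraries were above all vehicle libraries, of which vehicle 3 was the highest (2.22 ± 0.59, adjusted p = 0.272). With rapamycin present the difference had the opposite sign, at -0.69 ± 0.56. Kntc1, a kinetochore gene of the spindle checkpoint that stood outside the G2/M list, was at 1.99 ± 0.51, the zinc finger gene Zfp35 at 1.93 ± 0.71, the carboxypeptidase Cpd at 1.605 ± 0.45 and the lipid kinase adaptor Fam126a at 1.56 ± 0.48. P2ry1, a receptor for ADP, had 21.6, 15.5, 13.3 and 28.6 CPM in palbociclib libraries, against 6.63, 5.803, 9.399 and 5.398 CPM in vehicle libraries (1.53 ± 0.42, adjusted p = 0.286). None of these 6 genes reached an unadjusted p under 0.05 in the second comparison, where their values lay between -0.69 and 0.61.

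**Figure D3:**
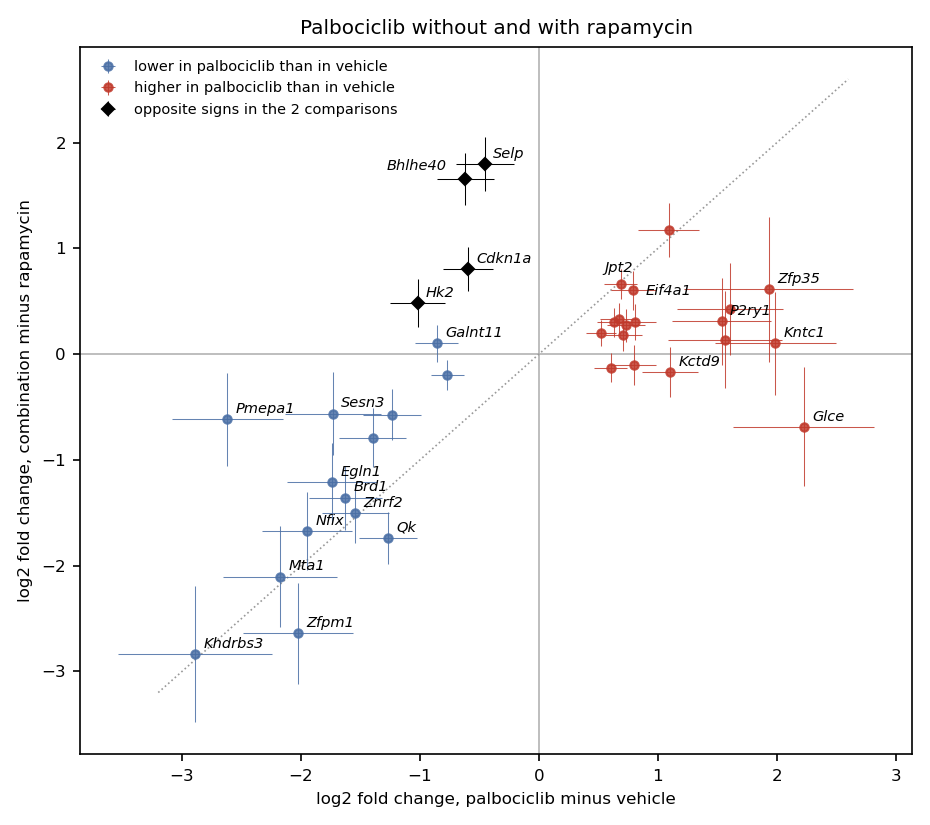
Log2 fold change of palbociclib minus vehicle (horizontal) and of combination minus rapamycin (vertical), which share no library, for the genes named by smallest p or largest change; bars give the SE and the dotted line marks equal values. Qk, Nfix, Znrf2 and Khdrbs3 lie near the line, while Selp, Bhlhe40, Cdkn1a and Hk2 (black diamonds) have opposite signs in the 2 comparisons, as have Galnt11, Kctd9 and Glce.

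The list of FOXO factors, their targets and other quiescence genes was lower in most members. Of 34 tested members, 27 had negative log2 fold changes with a median of -0.44, against a median of -0.03 over all genes. An unadjusted p under 0.05 was reached by 15 members in the lower direction, against 5.15% of all genes, and by 0 in the higher direction. Like the other lists, this list was chosen with earlier results of these data known. Its counts beside the shares of all genes are therefore a description and no test. No member passed the test over all genes, 9 had no overlap in the lower direction (background 2.21%), and with the GC trend removed 15 members had that p in the lower direction. On average over the list, expression in log2 CPM was 5.40, 5.39, 5.20 and 5.19 in palbociclib libraries, against 5.68, 5.78, 5.74 and 5.94 in vehicle libraries. The groups were apart by more than the range within either. Without the 3 libraries of lowest correlation (vehicle 3, vehicle 4 and rapamycin 3) the median was -0.28.

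Among the factors themselves, Foxo1 had 14.9, 9.97, 9.75 and 8.24 CPM in palbociclib libraries, against 30.6, 22.8, 6.74 and 56.95 CPM in vehicle libraries, where vehicle 3 fell below the palbociclib range and vehicle 4 was the highest. Its log2 fold change of -1.45 ± 0.47 was -0.90 without vehicle 4. Foxo4 was near the detection limit, with 0.623, 1.15, 0.53 and 0.582 CPM in palbociclib libraries, against 1.38, 1.47, 6.03 and 2.09 CPM in vehicle libraries, and -1.92 ± 0.78 (-1.17 without vehicle 3). Both are FOXO genes of the list that were named after their values were seen. The list also holds Foxo3 and Foxo6, whose values are not reported here, so these 2 genes do not stand for all FOXO factors. Sesn3, a stress-induced inhibitor of mTORC1 and a FOXO target, had 5.52, 7.76, 8.05 and 7.08 CPM in palbociclib libraries, against 27.8, 21.1, 33.1 and 12.3 CPM in vehicle libraries. All palbociclib libraries were below all vehicle libraries (-1.73 ± 0.40, adjusted p = 0.212). Pnrc1, a nuclear receptor cofactor that restrains ribosome production, had 215, 292, 219.9 and 228 CPM in palbociclib libraries, against 393, 415, 415 and 405 CPM in vehicle libraries, without overlap. Its means were 239 ± 35.9 CPM in palbociclib and 407 ± 10.8 CPM in vehicle libraries, a log2 fold change of -0.77 ± 0.14 (edgeR adjusted p = 0.207).

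Other members acted on growth signals and mRNA. Ddit4, the mTORC1 inhibitor REDD1, had 3.56, 3.71, 2.97 and 3.49 CPM in palbociclib libraries, against 20.4, 4.504, 12.8 and 6.17 CPM in vehicle libraries, without overlap (-1.68 ± 0.55). Pik3ip1, an inhibitor of PI3 kinase, had 116, 108, 70.9 and 83.6 CPM in palbociclib libraries, against 144, 137, 148 and 224 CPM in vehicle libraries, also without overlap (-0.79 ± 0.27). The transcriptional repressor Hes1, a Notch target, had 2.23, 4.41, 1.17 and 4.26 CPM in palbociclib libraries, against 9.82, 18.7, 11.02 and 9.36 CPM in vehicle libraries, with the highest palbociclib library below the lowest vehicle library (-2.01 ± 0.50, adjusted p = 0.253). Zfp36l2, which promotes decay of AU-rich mRNAs, Klf13 and the MYC antagonist Mxd4, named after their values were seen, were at -1.05, -0.82 and -0.61.

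In the combination against rapamycin the list was much nearer to the rest of the genes. Its median there was -0.09, with 24 of 34 members negative (background 51.9%), 7 lower at an unadjusted p under 0.05 and 1 higher (backgrounds 4.35% and 5.44%). The 4 members lower at that p in both comparisons were Nfix, Zfp36l2, Ddit4 and Foxo4, with -1.67, -0.91, -1.22 and -2.23 in the second. Hes1, with 11.6, 12.9, 3.29 and 8.36 CPM in combination libraries, against 6.04, 4.46, 6.62 and 9.48 CPM in rapamycin libraries, and Pnrc1, with 307, 366, 317 and 314 CPM in combination libraries, against 408, 322, 433 and 331 CPM in rapamycin libraries, overlapped between those groups. The difference between the 2 palbociclib effects had an unadjusted p of 0.00244 for Hes1 and 0.00987 for Pnrc1.

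**Figure D4:**
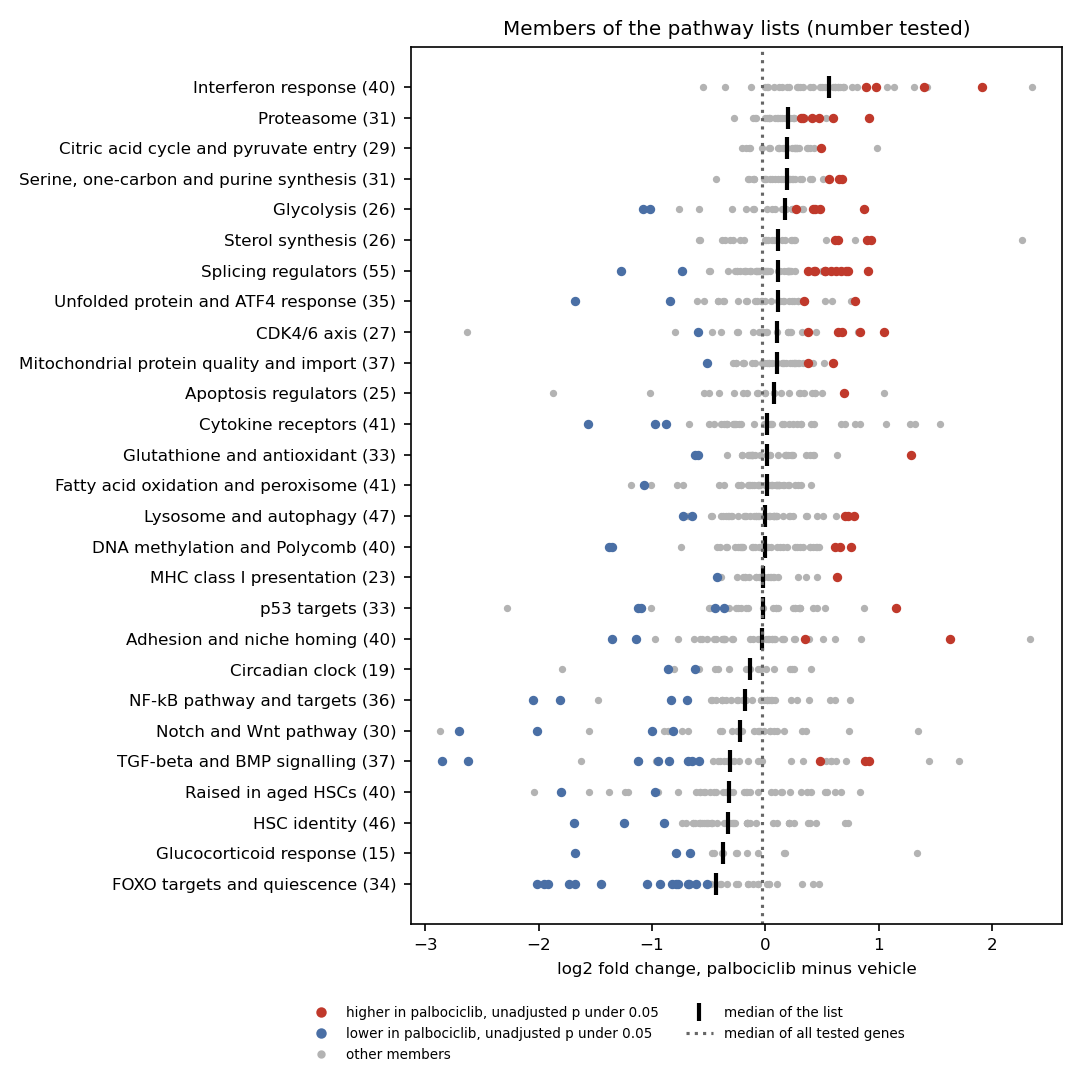
Log2 fold change of palbociclib minus vehicle for the tested members of 27 pathway lists, ordered by their median. Red and blue points are members with an unadjusted p under 0.05 in the higher and lower direction, and 0 of them passed the test over all genes.

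TGF-beta and BMP signalling had 24 of 37 members negative (background 52.2%), a median of -0.31, and 8 lower and 3 higher at an unadjusted p under 0.05 (backgrounds 5.15% and 4.36%). Beside Pmepa1, the inhibitory SMAD gene Smad7 averaged 9.39 ± 1.32 CPM in palbociclib and 16.9 ± 6.22 CPM in vehicle libraries (-0.85 ± 0.31), and the repressor Tgif2 was at -0.95 ± 0.35 (-0.63 without vehicle 1). Without vehicle 2 or vehicle 4 the median of the list was -0.20 or -0.16. The Notch and Wnt list had 21 of 30 members negative and a median of -0.22, which was 0.00 without vehicle 4 and -0.37 without vehicle 3. Its lower members at an unadjusted p under 0.05 included, besides Hes1, the ligand gene Jag2 (-0.81 ± 0.30, or -0.51 after the GC trend was removed) and the Wnt receptor ligase gene Znrf3 (-2.71 ± 0.94). The glucocorticoid response list, which shares Ddit4 and Pik3ip1 with the FOXO list, had 12 of 15 negative and a median of -0.38, but -0.14 and -0.15 without vehicle 1 or vehicle 2. NF-kB genes had 24 of 36 negative, a median of -0.18 (-0.06 without vehicle 4) and 4 lower members at that p (background 5.15%). Among cytokine receptors (20 of 41 negative, median 0.02), the TSLP receptor gene Crlf2 had 28.3, 19.9, 23.4 and 22.4 CPM in palbociclib libraries, against 36.1, 36.9, 44.5 and 55.2 CPM in vehicle libraries, without overlap (-0.88 ± 0.21, or -0.46 after the GC trend was removed).

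Genes that mark HSCs themselves were lower in most members without clear support from single genes. Of 46 tested, 35 were negative with a median of -0.32, and 3 had an unadjusted p under 0.05, all lower (background 5.15%). Hoxb4 and Hoxb5, homeobox genes of the stem cell pool, were at -1.68 ± 0.59 and -1.25 ± 0.44, and both moved toward 0 without vehicle 1 (-1.06 and -0.80). Hoxb4 was at low counts, with 1.16, 1.85, 1.27 and 2.42 CPM in palbociclib libraries, against 11.1, 2.77, 5.315 and 2.42 CPM in vehicle libraries. Procr, the surface receptor EPCR, had 39.4, 99.2, 75.1 and 66.5 CPM in palbociclib libraries, against 165, 189, 116 and 51.5 CPM in vehicle libraries, where vehicle 4 fell inside the palbociclib range (-0.90 ± 0.33). The list mean overlapped between the groups, at 5.41 ± 0.32 log2 CPM in palbociclib and 5.68 ± 0.42 log2 CPM in vehicle libraries (SD, 4 libraries each), and was highest in vehicle 1, a library with few neutrophil transcripts, as is palbociclib 2, the highest of its group. Without vehicle 1 the median was -0.15, and without palbociclib 2 it was -0.57. Genes raised in aged HSCs had 27 of 40 negative and a median of -0.32, which was -0.08 without vehicle 1 and -0.51 without palbociclib 2. It had 2 lower members at an unadjusted p under 0.05 (background 5.15%), of which the sulphotransferase Sult1a1 was at -0.97 ± 0.46, or -0.59 without vehicle 2. The part of the neutrophil RNA in these values was not tested.

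Proteasome subunits had 26 of 31 positive, a median of 0.20, and 6 higher members at an unadjusted p under 0.05, against 4.36% of all genes. Psmd2, a base subunit of the regulatory particle, had 555, 592, 602 and 506 CPM in palbociclib libraries, against 417, 436, 350 and 417 CPM in vehicle libraries, without overlap (0.48 ± 0.13, adjusted p = 0.272), and 0.55 ± 0.13 with rapamycin present. Psmc6 and Psmb7 were at 0.92 and 0.60. The median was 0.09 after the GC trend was removed, against -0.08 over all genes in that fit, and was 0.13 without palbociclib 3. The citric acid cycle list had 24 of 29 positive with a median of 0.19 and 1 member, the fumarase gene Fh1 (0.49 ± 0.16), at that p. The list averaged 7.28 ± 0.05 log2 CPM in palbociclib and 7.03 ± 0.07 log2 CPM in vehicle libraries, without overlap. After removal of the GC trend the median was 0.08, against -0.08 over all genes in that fit.

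Serine, one-carbon and purine synthesis had 24 of 31 positive and a median of 0.19 (0.09 without vehicle 2). Paics, which acts in purine synthesis, had 326, 452, 519.5 and 435 CPM in palbociclib libraries, against 288, 268, 309.7 and 304 CPM in vehicle libraries, with palbociclib 1 just above the vehicle range (0.57 ± 0.14, adjusted p = 0.269). The mitochondrial folate enzyme Mthfd1l (0.68 ± 0.19) was also higher without overlap, and Prps2, which makes the ribose phosphate used for nucleotides, was at 0.66 ± 0.29. Both Paics and Mthfd1l were higher in the combination than in rapamycin, at 0.41 ± 0.14 and 0.59 ± 0.19.

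Glycolysis genes split. Hk2, a hexokinase that catalyses the first step of glycolysis, had 53.2, 30.1, 34.1 and 35.5 CPM in palbociclib libraries, against 99.5, 85.3, 80.3 and 44.8 CPM in vehicle libraries. Only vehicle 4 fell into the palbociclib range, and the log2 fold change was -1.02 ± 0.23 (edgeR adjusted p = 0.212). Slc16a1, the lactate and pyruvate carrier MCT1, had 169, 157, 178 and 173 CPM in palbociclib libraries, against 96.5, 97.3, 76.5 and 101 CPM in vehicle libraries, far apart and tight in the palbociclib group (0.87 ± 0.22, adjusted p = 0.269). Pdk2, an inhibitory kinase of pyruvate dehydrogenase, was at -1.08 ± 0.37. Over the list, 18 of 26 members were positive with a median of 0.18 (0.08 without vehicle 1), and 5 were higher and 2 lower at an unadjusted p under 0.05 (backgrounds 4.36% and 5.15%). With rapamycin present, Hk2 had 57.6, 59.5, 74.8 and 58 CPM in combination libraries, against 45.9, 41.7, 49.1 and 42.5 CPM in rapamycin libraries, without overlap and in the opposite direction (0.48 ± 0.23). The difference between the effects was 1.499 ± 0.32, with an unadjusted p of 0.00027 and an adjusted p of 0.429. Sterol synthesis had 17 of 26 positive and a median of 0.11, which ranged from 0.06 without palbociclib 3 to 0.27 without vehicle 1. Its members Hmgcs1 and Tm7sf2 were at 0.93 ± 0.41 and 0.90 ± 0.40. With the GC trend removed the list had 1 higher member at an unadjusted p under 0.05, against 4 before.

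The ferritin subunit genes Fth1 and Ftl1 belong to the glutathione and antioxidant list, of which 18 of 33 tested members were positive and 1 was higher and 2 lower at an unadjusted p under 0.05 (backgrounds 4.36% and 5.15%). Both subunits of this iron store were lower in every palbociclib library than in any vehicle library. Fth1, the heavy chain, had 1651, 1630, 1632 and 1435 CPM in palbociclib libraries, against 1806, 2595, 2317 and 2858 CPM in vehicle libraries (-0.59 ± 0.16, adjusted p = 0.297). Ftl1, the light chain, averaged 3038 ± 247 CPM in palbociclib and 4682 ± 1536 CPM in vehicle libraries (-0.62 ± 0.23, or -0.37 without vehicle 3). Tfrc, the transferrin receptor that brings iron into the cell, was named after its values were seen and had 52.8, 39.3, 89.96 and 80.2 CPM in palbociclib libraries, against 16.9, 23.2, 12.9 and 32.05 CPM in vehicle libraries. Its groups did not overlap (1.63 ± 0.48, adjusted p = 0.329). With rapamycin present Fth1 and Tfrc had 0.01 ± 0.16 and 0.21 ± 0.47. Ftl1 reads may be shared with processed copies. Tfrc also stands on the erythroid marker list, of which 11 of 20 members were positive with a median of 0.10 (-1.45 without palbociclib 1).

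Splicing regulators had 32 of 55 positive, a median of 0.11, and 11 higher and 2 lower members at an unadjusted p under 0.05 (backgrounds 4.36% and 5.15%). The median was 0.02 without vehicle 2 and 0.03 without palbociclib 4. Srsf3, an SR protein, had 554, 562, 633 and 561 CPM in palbociclib libraries, against 399, 377, 426 and 299 CPM in vehicle libraries, without overlap (0.62 ± 0.17, adjusted p = 0.302; 0.41 after the GC trend was removed). The members of this list have a median GC content of 43.2%. With the GC trend removed the median was -0.09, near the -0.08 of all genes in that fit, and 6 higher members had that p. Qk was the lower member of smallest p.

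Interferon response genes had 36 of 40 positive and a median of 0.56, with the high values in palbociclib 3 and palbociclib 4. The list mean was 4.12, 4.08, 5.53 and 5.28 log2 CPM in palbociclib libraries, against 4.04, 4.55, 3.95 and 4.36 log2 CPM in vehicle libraries. The first pair of palbociclib libraries lay within the vehicle range and the second pair above it. Without palbociclib 3 the median was 0.29. Oas2, a sensor of double-stranded RNA, had 5.698, 5.73, 66.01 and 60.96 CPM in palbociclib libraries, against 4.48, 12.7, 0.713 and 19.1 CPM in vehicle libraries, and Ddx58, the RIG-I sensor, 15.8, 41.02, 102 and 86.8 CPM in palbociclib libraries, against 26.6, 33.1, 20.6 and 44.5 CPM in vehicle libraries. Rsad2, the antiviral protein viperin, overlapped only at palbociclib 1, with 25.7, 35.99, 76.4 and 55.2 CPM in palbociclib libraries, against 13.4, 26.6, 19.8 and 13.2 CPM in vehicle libraries (1.402 ± 0.38, adjusted p = 0.282). In the combination against rapamycin the median of the list was 1.18 and 28 of 40 members were higher at an unadjusted p under 0.05 (background 5.44%). The list mean was 5.17, 4.69, 5.91 and 5.76 log2 CPM in combination libraries, so replicates 3 and 4 were highest there as well.

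**Figure D5:**
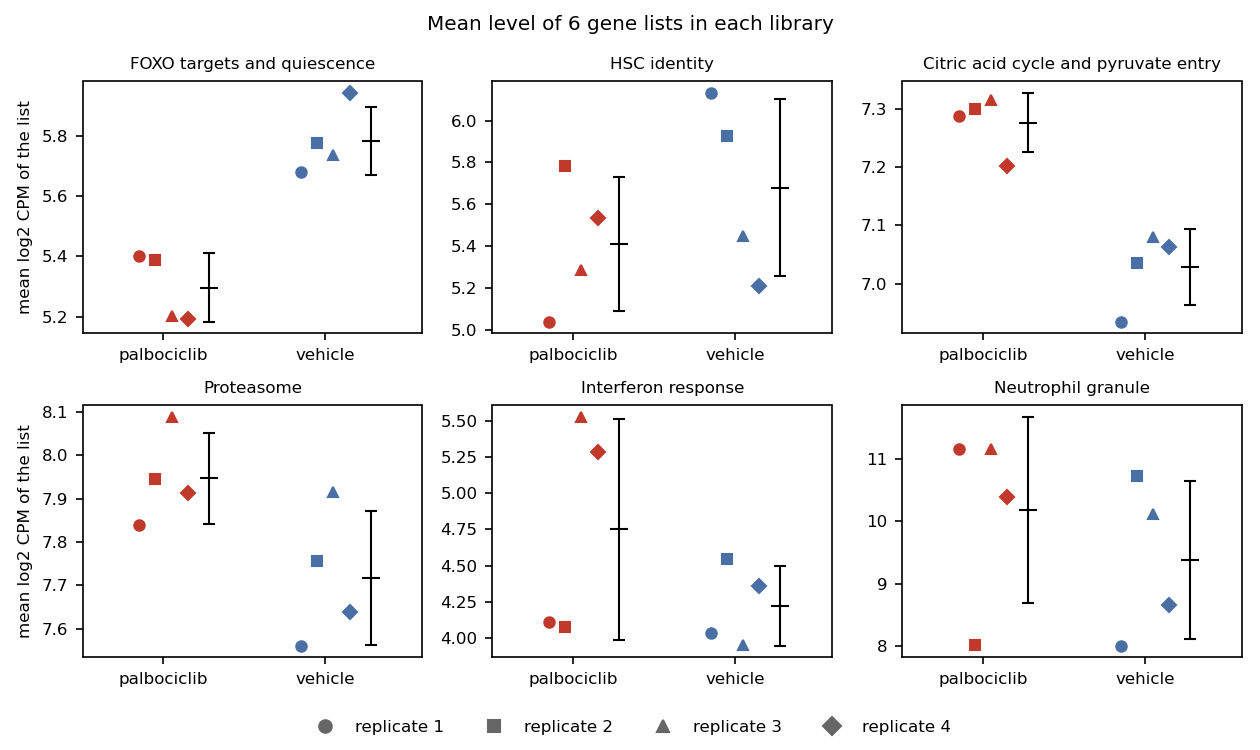
Mean log2 CPM of 6 gene lists in the 4 palbociclib (red, left) and 4 vehicle (blue, right) libraries, with the replicate given by the symbol and mean ± SD by the bar; the vertical axes do not start at 0. The FOXO and citric acid cycle lists are apart, while the other 4 overlap.

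The remaining lists were near the background in their medians. Medians lay between -0.13 (circadian clock) and 0.11 (unfolded protein and ATF4 response) for 12 lists, which also held p53 targets, MHC class I presentation, Polycomb and DNA methylation, lysosome and autophagy, fatty acid oxidation, antioxidants, mitochondrial protein quality, apoptosis, adhesion, and the cytokine receptors given above. The mitochondrial protein quality list had 24 of 37 positive (background 47.8%) and a median of 0.10. Its mean was 6.254 ± 0.046 log2 CPM in palbociclib and 6.135 ± 0.070 log2 CPM in vehicle libraries (SD), without overlap. After removal of the GC trend its median was 0.03, against -0.08 over all genes in that fit. p53 targets had 16 of 33 positive and a median of -0.02. At an unadjusted p under 0.05, 1 p53 target was higher and 4 were lower (backgrounds 4.36% and 5.15%). Without overlap, 0 were higher and 3 lower (backgrounds 2.83% and 2.21%), and single p53 targets are not named here. Members of smallest p from other lists among the 12 are given as examples. G6pdx, which makes NADPH, had 620, 218, 1146 and 678 CPM in palbociclib libraries, against 134, 393, 253 and 313 CPM in vehicle libraries. Its groups overlapped (1.28 ± 0.47). It was lowest in palbociclib 2 and vehicle 1, the libraries of lowest neutrophil share (1.34% each), and the part of neutrophil RNA was not tested. The DNA methyltransferase Dnmt1 was at 0.61 ± 0.27, the necroptosis effector Mlkl at 0.69 ± 0.22, the mitochondrial chaperone Hspa9 at 0.38 ± 0.15 and the mitophagy kinase Pink1 at -0.51 ± 0.19. H2-K1, a classical MHC class I gene, was at -0.43 ± 0.19, while Pdia3, a chaperone of MHC loading, was at 0.63 ± 0.23. The tetraspanin Cd82, known to restrain HSC cycling, averaged 64.7 ± 14.2 CPM in palbociclib and 142 ± 55.7 CPM in vehicle libraries (-1.14 ± 0.31, or -0.59 without vehicle 3, vehicle 4 and rapamycin 3), and the integrin Itgb1 was at 0.35 ± 0.14. Cebpb, a transcription factor of stress and myeloid differentiation, was at -0.84 ± 0.30, the glycyl-tRNA synthetase Gars at 0.34 ± 0.13, the autophagy protein gene Map1lc3a at -0.64 ± 0.20 and the proton pump subunit Atp6v0d1 at -0.73 ± 0.26. After the GC trend was removed, Hspa9 was at 0.23, Itgb1 at 0.19, Pink1 at -0.32, Map1lc3a at -0.30 and Cebpb at -0.39, none with an unadjusted p under 0.05.

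For scale, S-phase genes had 76 of 81 positive with a median of 0.48 and G2/M genes 90 of 92 with 0.62 (background 47.8%). Immediate early genes had 41 of 46 negative with -0.42 (background 52.2%), and 0 members of any of the 3 lists passed. In combination against rapamycin, 54 of 81 S-phase genes, 22 of 92 G2/M genes and 21 of 46 immediate early genes were positive (background 48.1%). The medians there were 0.095, -0.19 and -0.07, so the G2/M median had the opposite sign. Markers of other cells followed single libraries. Neutrophil granule genes had 17 of 19 positive with a median of 0.86 and 0 at an unadjusted p under 0.05, at a summed 12470 to 108200 CPM in palbociclib and 11800 to 71760 CPM in vehicle libraries. B cell genes had 15 of 16 negative with a median of -2.07, and T and NK cell genes 17 of 19 with -1.21; without vehicle 4 these medians were 0.51 and 0.61. Stroma and endothelium (13 tested, median 0.38) and megakaryocyte genes (19 tested, median 0.51) had medians of -0.15 without palbociclib 3 and -0.05 without palbociclib 1. Monocyte, macrophage and dendritic genes (23 tested) had a median of 0.01, and progenitor markers (16 tested) one of 0.34, which was 0.05 without vehicle 1 and 0.05 without palbociclib 3. Their part in the gene differences above was not tested. The fit with blood cell shares as covariates called 0 genes, as did the main fit, so that count cannot show it.

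The 2 palbociclib effects, without and with rapamycin, were furthest apart by p in Selp and Bhlhe40. Selp, the adhesion molecule P-selectin known to be raised in aged HSCs, had 105, 93.2, 107 and 141 CPM in palbociclib libraries, against 184, 201, 92.4 and 135 CPM in vehicle libraries, overlapping and at -0.46 ± 0.24. With rapamycin present it had 185, 210, 224 and 243 CPM in combination libraries, against 65.9, 36.3, 75.2 and 70.5 CPM in rapamycin libraries, far apart (1.799 ± 0.25, edgeR adjusted p = 0.0197). Bhlhe40, a stress-responsive repressor, had 53.9, 35.6, 46.6 and 37.8 CPM in palbociclib libraries, against 91.1, 67.3, 65.7 and 42.96 CPM in vehicle libraries (-0.62 ± 0.24) and 47.4, 56.3, 51.9 and 53.2 CPM in combination libraries, against 17.9, 14.2, 11.5 and 22.5 CPM in rapamycin libraries (1.66 ± 0.25, adjusted p = 0.0245). The difference between the 2 effects of palbociclib was 2.25 ± 0.35 for Selp and 2.28 ± 0.34 for Bhlhe40, each with an adjusted p of 0.051. In combination against rapamycin, with 1 of those 8 libraries left out in turn, Selp passed in 1 fit of 8, that without combination 1 (adjusted p 0.039 to 0.0943), and Bhlhe40 in 0 (0.0511 to 0.139). Il4ra, the interleukin-4 receptor chain, and Bcl3, an NF-kB cofactor, had the same pattern at -0.97 and -0.69 without rapamycin and 0.88 and 1.25 with it, at unadjusted p of 0.00042 and 0.000382 for the difference. The value of Bcl3 was -0.43 without palbociclib 2 and -0.34 after the GC trend was removed.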

How the data were processed

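RNA of 16 libraries had been sequenced after low-input amplification. Per the submitters' processing notes, reads were processed with STAR 2.5.3a, RSEM 1.3.0 and SAMtools 1.3 on mm10. Settings and strand handling were not stated. The authors deposited expected counts per gene, given as whole numbers, and log2 values of TPM + 1, which were turned back into TPM for levels between genes and used as deposited in 1 alternative. Symbols came from GENCODE M21 (GRCm38, the mm10 build) for 50462 of 50686 gene IDs.

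Genes were kept by edgeR's filterByExpr (15308) and scaled by TMM. The group means of all 16 libraries were fitted with edgeR 4.0.16 (R 4.3.3), quasi-likelihood, 12 residual degrees of freedom, and p-values were adjusted by Benjamini-Hochberg over all genes with a threshold of 0.05. A value with ± beside a log2 fold change is its SE. The contrasts were palbociclib minus vehicle, combination minus rapamycin and the difference of these 2 effects, and the first pair shares no library. Depth was about the same in both groups and limits low genes most. Within-group pairs differed by more than sampling noise (chi-square per degree of freedom of at least 23.6), so each library counted once.

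Named genes were, outside the cell cycle, immediate early and marker lists and with no overlap of the groups, the 12 of smallest p per direction (average log2 CPM of at least 2) and the 6 of largest change with unadjusted p under 0.05 (at least 3), the CDK4/6 list, and up to 3 members of smallest p per pathway list, of which 1 is not reported here. The members and lists were chosen with earlier results of these data known. The promoter motifs, the GC alternative, and Foxo1, Foxo4, Zfp36l2, Klf13, Mxd4 and Tfrc were chosen after their values were seen. Alternatives were DESeq2 1.42.0, limma 3.58.1 on voom weights or log2 TPM, RLE scaling, no filter, a replicate block, blood cell shares as covariates, without marker genes, only the libraries of the comparison, without the 3 libraries of lowest correlation, each library left out, and the GC trend of each library removed. The code was tested on simulated data.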

Additional observations from a re-analysis of the deposited data

Results flagged for a closer look

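Within single groups of 4 libraries, 14 of 194 sets of values held a library whose gap to its nearest neighbour exceeded Dixon's 95% critical value, which chance gives in about 1 in 20 groups. Among CDK4/6 genes, Cdk6 was 331.1 CPM in palbociclib 4 (the other 3 at 145.1 to 172 CPM), Ccnd3 was 395 CPM in palbociclib 2 (806 to 854.7) and Ccnd2 was 408.5 CPM in vehicle 1 (261.9 to 273.9). Within palbociclib, Pmepa1 was 1.166 CPM in palbociclib 3 (2.714 to 2.938), Foxo4 1.147 CPM in palbociclib 2 (0.5298 to 0.6233), Bcl3 19.14 CPM in palbociclib 2 (52.03 to 57.66), and Srsf3 632.7 CPM in palbociclib 3 (554 to 561.7). Both ferritin genes were low in palbociclib 4, Fth1 at 1435 CPM (1630 to 1651) and Ftl1 at 2669 CPM (3145 to 3182). Within vehicle, Foxo4 was 6.028 CPM (1.378 to 2.093), Glce 6.482 CPM (1.378 to 2.093) and Hnrnpm 233.4 CPM (175.7 to 183.6) in vehicle 3, and Kctd9 was 12.01 CPM (7.649 to 8.352) and Pik3ip1 224.4 CPM (137.3 to 147.7) in vehicle 4.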

How the results depend on the processing

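The count of called genes for palbociclib against vehicle was 0 by edgeR, 0 with any 1 library left out, 114 by DESeq2 (54 higher, 60 lower, 971 adjusted p not given), 1 with a replicate block (Brd1) and 1 without vehicle 3, vehicle 4 and rapamycin 3. Without the filter on low counts 2308 genes had an unadjusted p under 0.05, against 1456. For combination against rapamycin the 5 called genes became 167 by DESeq2, 56 with only the libraries of the comparison, 16 without the filter, 13 by limma on log2 TPM, 11 with the replicate block, 8 after GC removal and 0 to 2 with 1 library left out. For the difference of the effects the count of 0 became 34 by DESeq2, 4 without the filter, 3 by RLE scaling, 3 after GC removal, 3 without the 3 libraries and 0 to 5 with 1 library left out (5 without vehicle 3). The cause of these shifts was not tested. Same-numbered palbociclib and vehicle libraries correlated in their deviations at -0.12, -0.004, 0.087 and 0.027, so the numbers do not pair them. Of 1841 fold changes of 97 genes, 15 reversed, all in Ccnd1 and Ccnd2, whose main values were 0.23 and 0.00: Ccnd1 to -0.036 with blood cell shares and -0.232 without the 3 libraries, and Ccnd2 to -0.011 by DESeq2, -0.011 by RLE, -0.036 by voom, -0.0 without the filter, -0.016 with only the comparison's libraries, -0.008 with the replicate block, -0.127 after GC removal, -0.143 without the 3 libraries and -0.255 to 0.191 with 1 library left out. The median of all genes moved between -0.08 and 0.06. After GC removal 9 named genes had a log2 fold change more than 1.5 times smaller: Bcl3, Cebpb, Crlf2, Hspa9, Itgb1, Jag2, Map1lc3a, Pink1 and Srsf3. Genes near 1 CPM are limited by depth.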
